A study of Mus musculus with 12 samples.

Results

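Resting CD4 T cells with the Ikaros gene deleted were compared with resting CD4 T cells carrying intact Ikaros, over every gene the arrays measured. The comparison took the 6 baseline arrays out of 12, 3 per genotype, and all probe sets that paired with exactly 1 mouse gene, which were 23185 of 25206. The Cre- mice were labelled Lck-Cre-;Ikzf+/+ and the Cre+ mice Lck-Cre+;Ikzf-/-, and the cells were CD4+ T cells from spleen that had not been stimulated (0 h). The other 6 arrays held the same genotypes after 24 h with antibodies to CD3 and CD28 and are used here only beside the resting values. Cre was driven by the promoter of Lck, which is active in the T lineage, so deletion was not restricted to mature CD4 cells. There was no group with Cre and undeleted Ikaros, and any effect of Cre and the effect of the deletion therefore cannot be told apart. The labels give no strain, age or purity.

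Ikaros, encoded by Ikzf1, is a zinc finger transcription factor that lymphocytes need for their development. It is known mainly as a repressor that recruits chromatin remodelling and deacetylase complexes, and its zinc fingers bind DNA with the core letters GGGAA. In T cells it is known for silencing genes of other lineages and for raising the threshold of activation.

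The genes that differed most are introduced by their promoters, because the Ikaros core motif can be looked for there. The stretches below run from 250 bases before to 50 bases after the transcription start in RefSeq (GRCm38.p6) and belong to the 4 named genes with the largest increase that the promoter table held. Capitals mark GGGAA or TGGGAA on either strand, and a TGGGAA match contains a GGGAA match. The Slc43a1 promoter lies at chr2:84840073-84840372 on the plus strand, that of Itgam at chr7:128062390-128062689 (plus), that of Eng at chr2:32646345-32646644 (plus) and that of Slc15a1 at chr14:121505205-121505504 (minus).
Slc43a1: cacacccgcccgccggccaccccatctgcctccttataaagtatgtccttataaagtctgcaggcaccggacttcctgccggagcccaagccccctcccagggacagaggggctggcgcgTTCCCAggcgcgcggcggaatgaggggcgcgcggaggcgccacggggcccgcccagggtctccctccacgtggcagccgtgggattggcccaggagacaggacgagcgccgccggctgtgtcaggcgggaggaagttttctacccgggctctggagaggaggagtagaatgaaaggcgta
Itgam: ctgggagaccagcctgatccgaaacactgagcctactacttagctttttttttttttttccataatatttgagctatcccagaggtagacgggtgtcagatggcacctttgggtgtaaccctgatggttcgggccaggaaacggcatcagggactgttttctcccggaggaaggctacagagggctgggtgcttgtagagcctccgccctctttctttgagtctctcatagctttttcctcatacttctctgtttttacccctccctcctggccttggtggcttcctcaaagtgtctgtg
Eng: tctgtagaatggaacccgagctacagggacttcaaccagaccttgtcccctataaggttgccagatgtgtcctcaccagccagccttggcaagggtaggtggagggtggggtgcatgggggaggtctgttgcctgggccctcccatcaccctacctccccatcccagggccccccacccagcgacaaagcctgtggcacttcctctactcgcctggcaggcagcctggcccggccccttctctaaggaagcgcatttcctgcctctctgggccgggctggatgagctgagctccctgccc
Slc15a1: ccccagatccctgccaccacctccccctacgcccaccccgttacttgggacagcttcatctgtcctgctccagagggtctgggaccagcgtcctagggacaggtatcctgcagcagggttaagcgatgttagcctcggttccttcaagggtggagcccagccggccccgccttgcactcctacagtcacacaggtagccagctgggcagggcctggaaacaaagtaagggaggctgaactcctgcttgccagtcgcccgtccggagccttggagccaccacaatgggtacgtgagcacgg
The Slc43a1 promoter held 1 match, on the reverse strand, and the other 3 windows held none of these letters. Of all 32851 RefSeq promoters, 62.7% held GGGAA and 25.6% held TGGGAA. For the 21141 promoters of genes tested here the shares were 63.4% and 24.4%. The 212 promoters of 160 genes called higher in Cre+ cells held them in 66.0% and 29.2%. The 40 promoters of 39 genes called lower in Cre+ cells held them in 62.5% and 25.0%. A gene with several promoters was counted once for each. A match is a description of the letters and not a binding site.

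In all, 251 genes differed at rest between the genotypes, 1.08% of the 23185 tested (limma with a Benjamini-Hochberg adjustment across the whole set, where an adjusted p under 0.05 is what "called" means here). Of these, 202 were higher in Cre+ cells (0.871% of all genes) and 49 lower (0.211%). The change was at least 2-fold in 79 of the higher and 9 of the lower genes, and at least 4-fold in 10 genes, all of them higher. All 251 had their 3 values of one genotype above the 3 of the other. The same separation without regard to the test held for 8.82% of all genes upward and 7.42% downward, so separation by itself is common. An unadjusted p under 0.05 was reached by 2420 genes, 1377 of them higher in Cre+ cells.

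The called genes that rose read lower in intact cells than the called genes that fell, though above the typical gene. The median Cre- level of the former was 5.08 on the log2 scale, against 4.17 for all genes and 6.30 for the called genes that fell. Of the 202 higher genes, 51 (25.2%) read below the median of all genes in Cre- cells, and 7 had a Cre- mean of at least 8. Of the 49 lower genes, 6 (12.2%) were below the median and 9 at 8 or above. Background was not measured for the dimmest genes, and a fold against such a level is a ratio of readings. Protein coding genes made up 238 of the 251 (94.8%, against 84.2% of all genes tested).

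**Figure D1:**
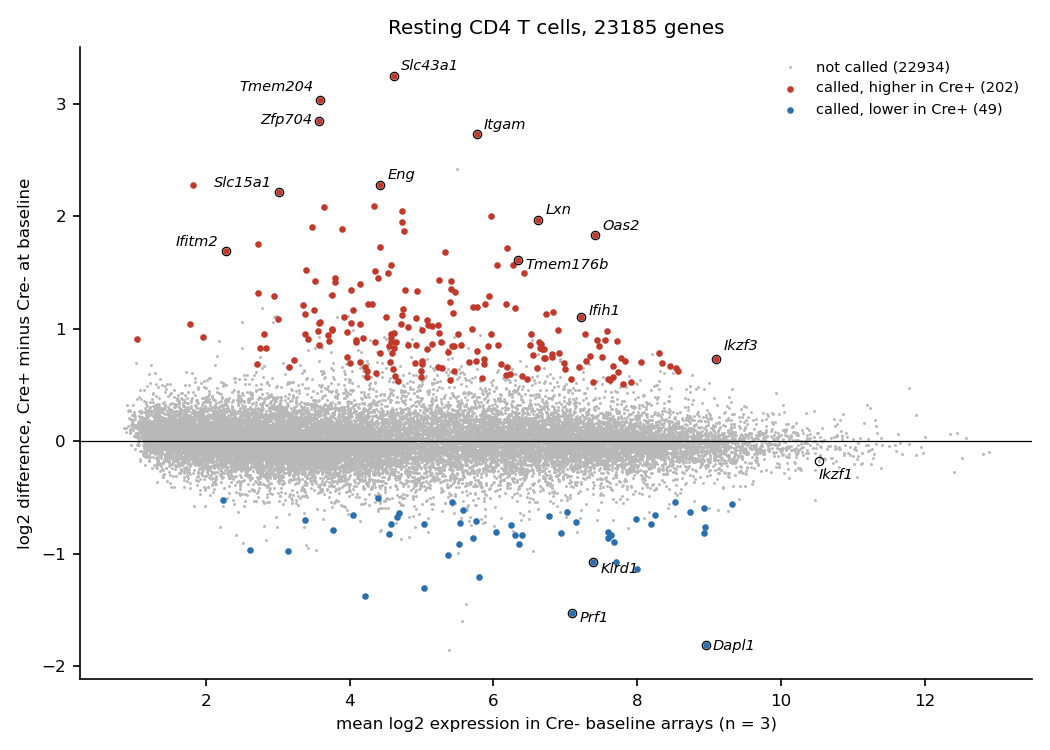
Log2 difference between Cre+ and Cre- cells at baseline (vertical axis) against the mean log2 expression of the 3 Cre- arrays (horizontal axis), 1 point per gene; red marks the 202 called genes higher in Cre+ cells and blue the 49 lower. The red points reach 3.25 (Slc43a1) and the blue ones -1.81 (Dapl1), and Ikzf1 lies at -0.17.

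The 6 arrays were alike in most respects. Their medians lay between 4.10 and 4.17, arrays of 1 genotype correlated across genes at 0.991 to 0.993 and arrays of different genotype at 0.989 to 0.992. Expression of Xist and of Y-linked genes put 1 female among the 3 Cre- arrays and 2 among the 3 Cre+ arrays. Whether each array is a different mouse is not stated, and p-values speak only of the spread among these arrays. With 3 arrays per group the precision is low: leaving out 1 array lowered the count of called genes to 131, 121 and 112 (without Cre- array 1, 2 or 3) and to 122, 105 and 132 (without Cre+ array 1, 2 or 3). The call held in all 6 of those fits for 79 of the 251 genes, 68 higher and 11 lower. Below, genes that lost their call in any of them are named at the end of their paragraph, with the highest adjusted p, the array left out there, and the other arrays or, beyond 3, the number of the 6 fits in which the call was lost. In cells measured in bulk, fewer cells of a kind and less RNA per cell cannot be told apart.

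Ikzf1 read 10.54, 10.52 and 10.54 in the Cre- arrays and 10.66, 10.29 and 10.13 in the Cre+ arrays. The groups overlapped, and the difference was -0.17 (SE 0.14, limma adjusted p = 0.757). The labels do not say which exons were removed, and the 1 value per gene can include what remains of the transcript, so this level did not check the genotype. The other members of the family, all zinc finger factors that can pair with Ikaros, gave 2 called genes of 4, both higher. Of all genes 1.08% were called. Ikzf3 (Aiolos) read 9.19, 9.09 and 9.02 in the Cre- arrays and 9.90, 9.74 and 9.85 in the Cre+ arrays, a rise of 0.73 (SE 0.10, limma adjusted p = 0.0129) with no overlap. Ikzf4 (Eos) rose by 0.86 (SE 0.11, limma adjusted p = 0.0129) from a Cre- mean of 6.50. Ikzf2 (Helios) stood at 7.07 ± 0.16 in Cre- and 7.62 ± 0.13 in Cre+ cells (SD, n = 3), separate in every array, and was not called (adjusted p = 0.0937). Ikzf5 (Pegasus) read 7.51 ± 0.16 in Cre- and 7.59 ± 0.09 in Cre+ cells. When 1 array was left out, calls were lost by Ikzf3 (0.0605 without Cre- 3, 4 of 6) and Ikzf4 (0.0622 without Cre+ 2, also Cre- 2 and Cre+ 1). No member of the family was called with the replicate number as a block or in the fit of all 12 arrays.

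Next to Ikzf1 on its chromosome 2 genes were called. Fignl1, an ATPase of DNA repair that RefSeq places next to Ikzf1, read 4.52, 4.92 and 4.74 in the Cre- arrays and 7.25, 6.31 and 6.74 in the Cre+ arrays. All Cre+ values were above the Cre- values, though they ranged over almost a log2 unit, and the difference was 2.04 (SE 0.22, limma adjusted p = 0.00513). On the same side, 3 tested genes from Ikzf1, the uncharacterised 1700042O10Rik rose by 1.75 (SE 0.27, limma adjusted p = 0.0249). Between them Ddc, which encodes an amino acid decarboxylase, was not called (difference 0.35, adjusted p = 0.196). The remaining 7 of the 10 nearest tested genes, 5 on each side, were not called either. Ikzf3 also had a called neighbour, Grb7, an adaptor of receptor tyrosine kinases, which rose by 1.73 (SE 0.15, limma adjusted p = 0.00151). Over the genome 11 pairs of neighbouring tested genes were both called, 22 genes in all, and both members moved the same way in each of the 11. They included Tmem176b with Tmem176a, Itga9 with Ctdspl (1.52), Tmtc3 (1.40) with Cep290 (0.89) and the predicted genes Gm4951 (2.28) and Gm4841 (1.11). How many such pairs would arise with calls placed at random was not computed. Because 202 of the 251 called genes were higher, a shared direction is common among them. Without 1 array the call was lost by 1700042O10Rik (0.115 without Cre- 3, 5 of 6).

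The largest increase was that of Slc43a1, a transporter of large neutral amino acids. It read 4.64, 4.79 and 4.42 in the Cre- arrays and 7.92, 7.88 and 7.81 in the Cre+ arrays. Each Cre+ value was at least 3 log2 units above every Cre- value, and the mean rose 9.51-fold, on the log2 scale by 3.25 (SE 0.11, limma adjusted p = 3.98e-05). Slc15a1, which carries small peptides into cells with protons, read 2.85, 3.16 and 3.07 in the Cre- arrays and 5.29, 5.41 and 5.01 in the Cre+ arrays, a rise of 2.21 (SE 0.14, limma adjusted p = 0.000567). Both groups were tight, and every Cre- reading lay below the median of all genes. On the list of 39 amino acid and peptide transporters Slc38a6 was also called (0.66, adjusted p = 0.0457), while the median difference over the list was 0.06 against 0.00 for all genes. Slc43a3, which shares the family of Slc43a1 and lies 2 tested genes away, read 6.11 ± 0.04 in Cre- and 6.53 ± 0.04 in Cre+ cells with no overlap and was not called (adjusted p = 0.0837). Of all 340 solute carriers tested, 6 were called higher and 1 lower, together 2.06%, against 1.08% of all genes. The latter was the urea transporter gene Slc14a1 (-0.82, adjusted p = 0.00811), and the former included the creatine transporter gene Slc6a8 (0.70, adjusted p = 0.0129). Leaving out 1 array ended the calls of Slc38a6 (0.175 without Cre- 1, 6 of 6) and Slc6a8 (0.0615 without Cre+ 2, 4 of 6).

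Tmem204, a membrane protein known from vascular endothelium, read 3.66, 3.83 and 3.29 in the Cre- arrays and 6.75, 6.77 and 6.36 in the Cre+ arrays. Zfp704, a zinc finger protein gene, read 3.64, 3.73 and 3.36 in the Cre- arrays and 6.50, 6.43 and 6.35 in the Cre+ arrays. For both, the lowest Cre+ value was more than 2 log2 units above the highest Cre- value, and the differences were 3.03 (SE 0.17, limma adjusted p = 0.0004) and 2.85 (SE 0.12, limma adjusted p = 7.64e-05). Adgrg3, an adhesion G protein-coupled receptor of leukocytes, rose by 1.95 (SE 0.10, limma adjusted p = 0.000337) and was the only called one of 19 such receptors. Cd163l1, a scavenger receptor known from gamma delta T cells, read 3.64 ± 0.19 in Cre- and 5.72 ± 0.29 in Cre+ cells (SD, n = 3), a rise of 2.08 (SE 0.16, limma adjusted p = 0.00123). Trim16, a tripartite motif protein gene, rose by 1.91 (SE 0.17, limma adjusted p = 0.00198). Dkkl1 (1.89), which encodes a secreted protein related to the Dickkopf Wnt inhibitors, and Gprin3 (1.69) completed the 20 largest increases, predicted genes left aside, together with genes described under their programmes. In 7 of the 20 the Cre- mean lay below the median of all genes, and in 19 the Cre+ mean lay above it. Of the 20, 19 kept their call whichever array was left out, and the exception was Ifitm2 (0.0796 without Cre- 2, 5 of 6).

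**Figure D2:**
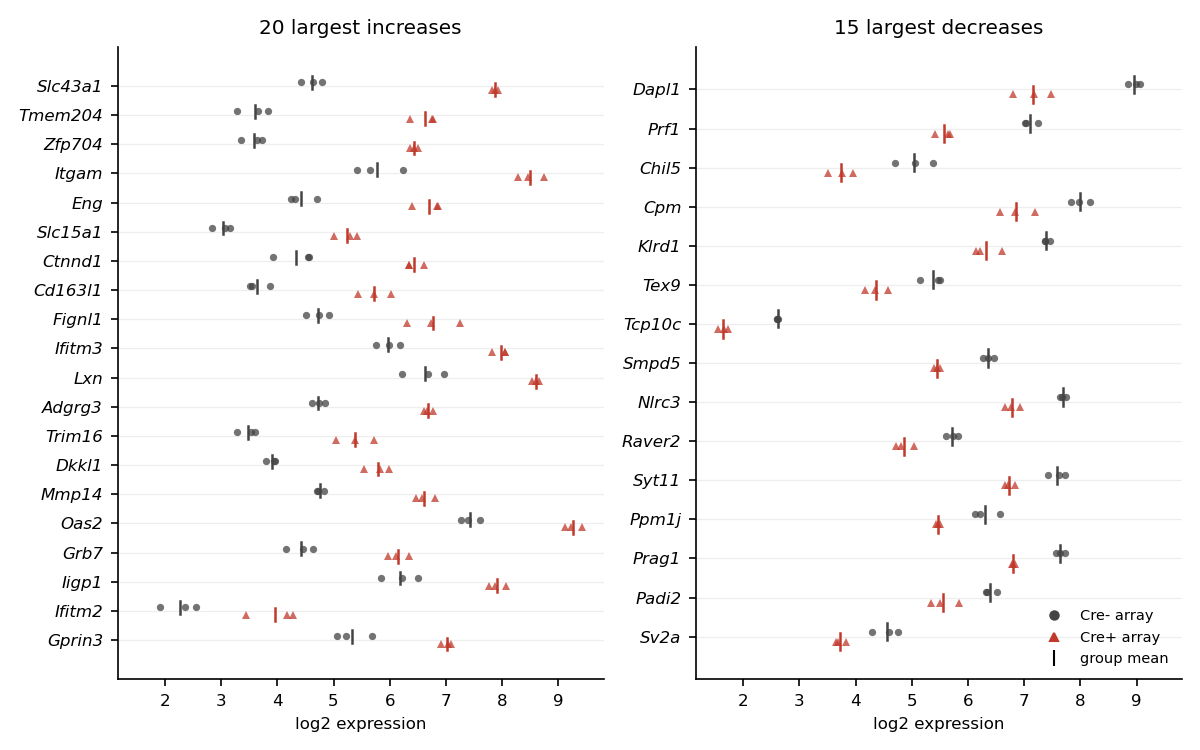
Log2 expression in each baseline array (horizontal axis) of the 20 largest increases (left) and 15 largest decreases (right) among called genes that are not merely predicted; grey circles are Cre- arrays, red triangles Cre+ arrays and short bars group means. The circles and triangles do not overlap for any gene, and the left panel shows wider gaps, from 3.25 between the means of Slc43a1 to 1.69 for Gprin3.

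Among genes of the type I interferon response 6 were called in resting Cre+ cells, all higher. This is the antiviral programme that cells switch on through the interferon receptor and STAT factors. The list had 39 members measured, of which 33 did not pass. Of all genes 1.08% were called. In the list 34 members lay above 0, with a median of 0.31, and the other 5 below. The groups were separate upward in 19 members (48.7%) and downward in 1 (2.56%), against 8.82% and 7.42% of all genes. The mean over the list was 6.89, 7.20 and 6.99 in the Cre- arrays and 7.39, 7.46 and 7.47 in the Cre+ arrays, so that every Cre+ array was above every Cre- array and Cre- array 2 was the highest of its group. The number called was 3 to 5 with 1 array left out and 2 in the fit of all 12 arrays.

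Oas2, an oligoadenylate synthetase that arms a cellular RNase, read 7.26, 7.60 and 7.39 in the Cre- arrays and 9.41, 9.21 and 9.12 in the Cre+ arrays. Its groups were more than a log2 unit apart, and it rose 3.56-fold, on the log2 scale by 1.83 (SE 0.12, limma adjusted p = 0.00083). The related Oasl2 rose by 1.56 (SE 0.15, limma adjusted p = 0.00319). Ifih1, a cytosolic sensor of double-stranded RNA, read 7.15, 7.21 and 7.31 in the Cre- arrays and 8.29, 8.29 and 8.40 in the Cre+ arrays. Its spread within a group was small, and the difference was 1.10 (SE 0.09, limma adjusted p = 0.00151). Mx2, a dynamin-like antiviral GTPase, Usp18, which removes the ubiquitin-like protein ISG15 from its targets, and Eif2ak2, the kinase that stops translation on double-stranded RNA, rose by 0.78, 0.75 and 0.70 (adjusted p = 0.0221, 0.0234 and 0.0193). Members that did not pass included other oligoadenylate synthetases, Oas1a (1.03, adjusted p = 0.182) and Oas3 (0.43, adjusted p = 0.174), the GTPase gene Mx1 (0.70, adjusted p = 0.415) and Stat2 (0.43, adjusted p = 0.0952), which transmits the interferon signal. Isg15 itself (0.28, adjusted p = 0.611), the ligase gene Herc6 (0.31, adjusted p = 0.552) and Irf7 (0.25, adjusted p = 0.539) did not pass either. In leave-one-out fits the calls were lost for Mx2 (0.0963 without Cre- 3, 4 of 6), Usp18 (0.11 without Cre- 1, 5 of 6) and Eif2ak2 (0.0943 without Cre- 1, 5 of 6).

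**Figure D3:**
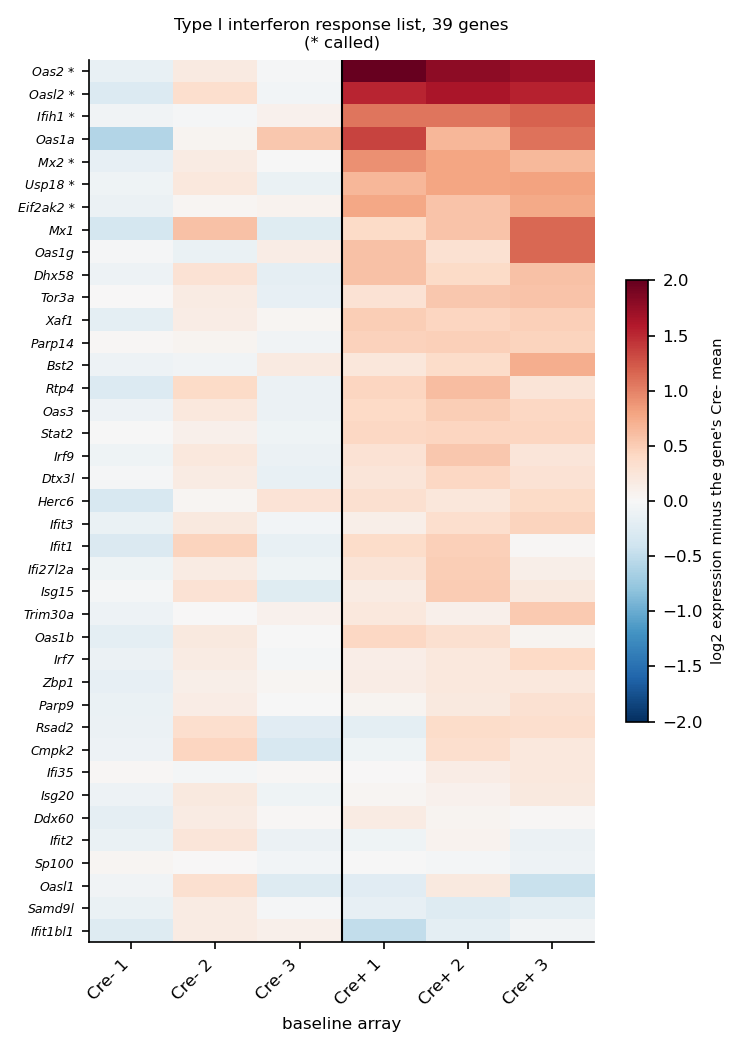
Log2 expression of the 39 measured genes of the type I interferon response list in each baseline array (columns), each minus that gene's mean over the 3 Cre- arrays; rows are ordered by the difference and stars mark the 6 called genes. Colours saturate at 2 log2 units. Most rows are red in the 3 Cre+ columns, and Cre- array 2 is mildly red in many rows.

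Of the related families, 3 held 2 called genes each, all higher, and 2 held none. The shares were 14.3% for the interferon gamma inducible GTPases, 28.6% for Ifitm genes and 20% for Schlafen genes. Of all genes 1.08% were called. The 14 interferon gamma inducible GTPases attack the vacuoles of intracellular microbes. Of them, Iigp1 (1.72, adjusted p = 0.00323) and Igtp (0.62, adjusted p = 0.0222) were called higher, and the list median was 0.42. Groups were separate in 8 of the 14 (57.1%), all upward, against 8.82% of all genes. Among 7 Ifitm genes, which encode small membrane proteins that block virus entry, Ifitm3 read 6.18, 5.98 and 5.76 in the Cre- arrays and 7.82, 8.06 and 8.04 in the Cre+ arrays. It rose 4-fold, on the log2 scale by 2.00 (SE 0.13, limma adjusted p = 0.000776). Ifitm2 rose by 1.69 (SE 0.24, limma adjusted p = 0.0183) from a dim Cre- mean of 2.27, and because these genes are near copies the division of probes between them is uncertain. Of 10 Schlafen genes, known as regulators of T cell quiescence, Slfn9 (1.36, adjusted p = 0.00118) and Slfn3 (1.03, adjusted p = 0.00436) were called, and their calls held in every leave-one-out fit. In the fit of all 12 arrays no Schlafen gene was called. Slfn8, a near relative of Slfn9, read 7.65 ± 0.13 in Cre- and 7.67 ± 0.12 in Cre+ cells (SD, n = 3), and Slfn2 (0.24, adjusted p = 0.454) and Slfn5 (0.25, adjusted p = 0.505) did not pass. No member of the Ifi200 family of DNA sensors (10 genes, median -0.06) was called. In the 22 genes of MHC class I and antigen processing none was called, 18 lay above 0 and the median was 0.17. Without 1 array calls were lost by Igtp (0.0982 without Cre+ 2, 6 of 6) and Ifitm2 (0.0796 without Cre- 2, 5 of 6).

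A few further genes with ties to this programme were picked out after their values were seen. Ube2l6, the conjugating enzyme for ISG15, read 5.18, 5.45 and 5.60 in the Cre- arrays and 6.73, 6.88 and 6.87 in the Cre+ arrays and rose by 1.42 (SE 0.12, limma adjusted p = 0.00161). RefSeq places it 3 tested genes from Slc43a1. Parp12, an interferon-inducible ADP-ribosyltransferase, read 5.99, 6.24 and 5.94 in the Cre- arrays and 7.64, 7.71 and 7.52 in the Cre+ arrays and rose by 1.57 (SE 0.11, limma adjusted p = 0.00116). Tbkbp1, an adaptor of the kinase TBK1, rose by 1.12 (adjusted p = 0.00123). None of the 3 lost its call when an array was left out. Of the interferon regulatory factors (8 genes), Irf4 was the only one called. This factor of activated lymphocytes read 6.61, 6.53 and 6.43 in the Cre- arrays and 7.30, 7.54 and 7.59 in the Cre+ arrays, a separate rise of 0.95 (SE 0.11, limma adjusted p = 0.00723), while Irf9 was not called (0.36, adjusted p = 0.359).

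Adhesion, cell junction and cytoskeletal genes held some of the larger increases, a small share of each list. Of 26 integrin subunits 3 were called, all higher, and the list median was -0.07. Itgam, which encodes CD11b, the integrin subunit of myeloid and NK cells, read 6.23, 5.42 and 5.65 in the Cre- arrays and 8.74, 8.47 and 8.28 in the Cre+ arrays. The groups were 2 log2 units apart at their closest, and Itgam rose 6.62-fold, on the log2 scale by 2.73 (SE 0.21, limma adjusted p = 0.00118). Its partner subunit gene Itgb2 read 10.55 ± 0.07 in Cre- and 10.50 ± 0.08 in Cre+ cells (SD, n = 3). Of the other subunits that pair with the Itgb2 product, Itgal was at 10.23 ± 0.04 in Cre- and 10.12 ± 0.07 in Cre+ cells, and Itgax at 6.37 ± 0.24 in Cre- and 6.07 ± 0.32 in Cre+ cells, both with overlapping groups. Itga5, of the fibronectin receptor, rose by 0.99 (SE 0.12, limma adjusted p = 0.0112), and Itga9 by 0.86 (SE 0.11, limma adjusted p = 0.0129). Calls depended on single arrays for Itga5 (0.0522 without Cre+ 1) and Itga9 (0.0622 without Cre+ 2, 4 of 6).

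Among 27 catenins, cadherins and junction proteins 3 catenin-related genes were called higher and none lower, with a list median of -0.06. Ctnnd1, p120 catenin, which steadies cadherins at the membrane, read 4.56, 3.92 and 4.54 in the Cre- arrays and 6.35, 6.34 and 6.60 in the Cre+ arrays. The Cre- values were scattered but all lay below the Cre+ values, and the rise was 2.09 (SE 0.18, limma adjusted p = 0.00151). Ctnna1, alpha-catenin, which links junctions to actin, rose by 0.95 (SE 0.11, limma adjusted p = 0.00759), and the plakophilin gene Pkp4 by 1.22 (SE 0.14, limma adjusted p = 0.00685). All 3 kept their calls in each leave-one-out fit.

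Genes that act on the actin cytoskeleton and the cell surface were among the increases. Vcl, vinculin, which joins integrins and cadherins to actin, read 5.34, 5.12 and 5.26 in the Cre- arrays and 6.80, 6.53 and 6.68 in the Cre+ arrays. It rose by 1.43 (SE 0.11, limma adjusted p = 0.00118) with no overlap. Further genes of the cytoskeleton, picked after their values were seen, were higher as well. They were the WAVE complex subunits Nckap1 (1.14, adjusted p = 0.00685) and Abi2 (0.96, adjusted p = 0.0189), the membrane-bending adaptors Trip10 (1.49, adjusted p = 0.00126) and Fnbp1l (1.09, adjusted p = 0.0189) and the small GTPase Rras (1.15, adjusted p = 0.0457). Mmp14, a membrane-anchored metalloproteinase that cuts collagen, read 4.82, 4.70 and 4.73 in the Cre- arrays and 6.58, 6.47 and 6.80 in the Cre+ arrays and rose by 1.87 (SE 0.11, limma adjusted p = 0.000556). Lxn, latexin, an inhibitor of carboxypeptidases, rose by 1.97 (SE 0.18, limma adjusted p = 0.0019). Without 1 array calls were lost by Abi2 (0.0943 without Cre- 1, 5 of 6), Fnbp1l (0.0822 without Cre+ 2, 4 of 6) and Rras (0.163 without Cre+ 2, 6 of 6).

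Receptors of the TGF-beta and BMP family, whose ligands restrain T cells and shape their differentiation, gave 3 called genes, all higher. They were 9.38% of the pathway list, against 1.08% of all genes. Eng, endoglin, a co-receptor best known from endothelium, read 4.71, 4.32 and 4.24 in the Cre- arrays and 6.86, 6.85 and 6.40 in the Cre+ arrays. Its Cre+ values were all far above its Cre- values, and the rise was 2.28 (SE 0.17, limma adjusted p = 0.00118). Acvr1, a BMP type I receptor, rose by 1.00 (SE 0.15, limma adjusted p = 0.0225), and Bmpr2, a BMP type II receptor, by 0.71 (SE 0.12, limma adjusted p = 0.0366). Of the 32 pathway genes, 13 had separate groups upward (40.6%) and 1 downward (3.13%), against 8.82% and 7.42% of all genes. The list median was 0.15, and with sex as a covariate 1 of the 32 was called. The ligand gene Bmp7, picked after its values were seen, rose by 0.69 (adjusted p = 0.0189). Growth factor and receptor genes picked in the same way were Igf1r (0.74, adjusted p = 0.0136), Igf2r (0.85, adjusted p = 0.00513) and Pdgfb (1.45, adjusted p = 0.00436). In the Notch pathway the co-activator gene Maml3 was called of 24 (0.96, adjusted p = 0.0203), and in the Wnt and TCF pathway the co-receptor gene Lrp5 of 28 (0.72, adjusted p = 0.0478). With sex as a covariate the Notch list held 1 called gene and the Wnt and TCF list 0. With 1 array fewer the calls were lost for Acvr1 (0.109 without Cre- 2, 5 of 6), Bmpr2 (0.142 without Cre- 2, 5 of 6), Bmp7 (0.0945 without Cre- 1, 5 of 6), Igf1r (0.064 without Cre- 3, 5 of 6), Maml3 (0.0979 without Cre- 3, 5 of 6) and Lrp5 (0.168 without Cre+ 2, 6 of 6).

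The lists of T helper programmes held few called genes, and like all lists here they were chosen with earlier results of these data known. Of 14 Th17 genes 3 (21.4%) were called higher, against 1.08% of all genes. They were Irf4 and the pair Tmem176b and Tmem176a, neighbouring genes for related ion channel proteins. Tmem176b read 6.33, 6.25 and 6.46 in the Cre- arrays and 7.72, 8.07 and 8.08 in the Cre+ arrays, a rise of 1.61 (SE 0.13, limma adjusted p = 0.00118), and Tmem176a rose by 1.19 (SE 0.19, limma adjusted p = 0.0249). The median of the list was -0.03. Among 15 Th2 genes only Epas1, a hypoxia-inducible factor, was called (1.00, adjusted p = 0.0113), and among 13 Th1 genes none. Gata3, the Th2 master regulator, did not pass (0.37, adjusted p = 0.222). Of 22 regulatory T cell genes 2 (9.09%) were called higher, Nrp1 (0.66, adjusted p = 0.0334) and Ikzf4 (0.86, adjusted p = 0.0129). Of the 22, 18 lay above 0, and the median was 0.33. Groups were separate upward in 11 (50%) and downward in 1 (4.55%), against 8.82% and 7.42% of all genes. The defining gene Foxp3 read 9.46, 9.48 and 9.52 in the Cre- arrays and 9.57, 9.70 and 9.70 in the Cre+ arrays. Its groups were separate by a narrow margin and it was not called (difference 0.17, adjusted p = 0.594), nor were Il2ra (0.48, adjusted p = 0.111) and Ctla4 (0.47, adjusted p = 0.198). Leave-one-out fits ended the calls of Tmem176a (0.115 without Cre- 2, 5 of 6), Epas1 (0.0609 without Cre- 3, also Cre- 2), Nrp1 (0.128 without Cre+ 3, 6 of 6) and Ikzf4 (0.0622 without Cre+ 2, also Cre- 2 and Cre+ 1).

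Few genes of activation were called at rest. Of 19 activation markers Irf4 alone (5.26%) was called, against 1.08% of all genes, and the median was 0.15. Groups were separate in 7 of the 19 (36.8%), all upward, against 8.82% of all genes. Nr4a1, an immediate early gene of T cell receptor signals, read 8.21 ± 0.15 in Cre- and 8.98 ± 0.25 in Cre+ cells. These groups were apart, and it was not called (adjusted p = 0.0546). The T cell receptor signalling list (43 genes, median -0.02), the cytokine genes (28, median 0.08) and the cytokine receptors (42, median -0.04) held no called gene. Among 16 TNF superfamily ligands Tnfsf4, the ligand of OX40, was called, with a rise of 1.32 (SE 0.13, limma adjusted p = 0.00388) from a dim Cre- level. Ly6c1, a surface protein of memory T cells, was the 1 called of 33 effector and memory genes (1.08, adjusted p = 0.0186). Single members of other signalling lists were the NF-kappaB inhibitor gene Tnip2 (0.69, adjusted p = 0.022), the G protein regulator gene Rgs2 (0.90, adjusted p = 0.00595), the prostaglandin receptor gene Ptger3 (1.05, adjusted p = 0.0185) and the transcription factor gene Sox13 (0.92, adjusted p = 0.0175). With sex as a covariate the NF-kappaB list held 0 called genes, and the lists of the other named genes 1 each. The retinoid list gave 2 of 19, the retinol uptake receptor gene Stra6 (0.90, adjusted p = 0.0225) and the nuclear receptor gene Rxra (0.57, adjusted p = 0.0391). With sex as a covariate it gave 0. Hdac7, a deacetylase gene of the T lineage, was picked after its values were seen (0.70, adjusted p = 0.0174), as was Firre, a long non-coding RNA gene of the X chromosome (1.57, adjusted p = 0.000567, and 0.00237 with sex as a covariate). Without 1 array calls were lost by Ly6c1 (0.0903 without Cre- 1, 5 of 6), Tnip2 (0.105 without Cre- 1, 5 of 6), Ptger3 (0.0851 without Cre- 3, also Cre- 1 and Cre+ 2), Sox13 (0.0828 without Cre- 3, 4 of 6), Stra6 (0.107 without Cre- 2, 6 of 6), Rxra (0.155 without Cre+ 2, 6 of 6) and Hdac7 (0.0703 without Cre+ 1, 5 of 6).

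Further families held scattered calls, and 1.08% of all genes were called. The shares were 4.41% of tripartite motif genes and 9.68% of semaphorins, plexins and neuropilins. They were 5.71% of annexins, galectins and S100 proteins and 4.88% of genes of fatty acid and phospholipid metabolism. Each share rests on a few genes. Of 68 tripartite motif genes 3 were called higher, Trim16, Trim30c (0.83, adjusted p = 0.0293) and Trim59 (0.75, adjusted p = 0.0185), with a median of 0.02. Among 31 semaphorins, plexins and neuropilins, guidance molecules that also act between immune cells, the receptor genes Plxnd1 (0.70, adjusted p = 0.0312) and Nrp1 were higher and the ligand gene Sema4f lower (-0.72, adjusted p = 0.0251). In 35 annexins, galectins and S100 proteins the galectin gene Lgals7 (1.45, adjusted p = 0.0132) and S100a1 (0.75, adjusted p = 0.0189) were higher. In 41 genes of fatty acid and phospholipid metabolism the phospholipase gene Pld2 was higher (0.69, adjusted p = 0.0181) and Chpt1, of phosphatidylcholine synthesis, lower (-0.50, adjusted p = 0.0478). Tlr2, a receptor for bacterial lipoproteins, rose by 0.71 (adjusted p = 0.0186) and was picked after its values were seen. Calls ended without single arrays for Trim30c (0.125 without Cre- 2, 5 of 6), Trim59 (0.0722 without Cre- 1, 6 of 6), Plxnd1 (0.119 without Cre+ 2, 6 of 6), Nrp1 (0.128 without Cre+ 3, 6 of 6), Sema4f (0.109 without Cre+ 2, 6 of 6), Lgals7 (0.0608 without Cre- 3, also Cre- 1 and 2), S100a1 (0.0859 without Cre- 1, 5 of 6), Pld2 (0.0754 without Cre- 3, 6 of 6), Chpt1 (0.185 without Cre+ 2, 6 of 6) and Tlr2 (0.0923 without Cre- 1, 4 of 6).

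The decreases were fewer and included genes of naive and cytotoxic T cells. Of all genes 1.08% were called, higher or lower. Dapl1, a gene of naive T cells, read 8.84, 8.98 and 9.05 in the Cre- arrays and 7.47, 6.80 and 7.17 in the Cre+ arrays. It fell by 1.81 on the log2 scale (SE 0.16, limma adjusted p = 0.00198) and was the only called gene among 22 of the naive and quiescence list, whose median was -0.01. Il7r, the receptor that keeps naive cells alive, read 10.30, 10.62 and 10.51 in the Cre- arrays and 10.03, 9.91 and 9.93 in the Cre+ arrays. The groups were separate, and it was not called (adjusted p = 0.0837). Prf1, perforin, the pore-forming protein of killer cells, read 7.03, 7.25 and 7.02 in the Cre- arrays and 5.41, 5.67 and 5.64 in the Cre+ arrays. The fall of 1.53 (SE 0.11, limma adjusted p = 0.00118) was clear of any overlap. Of the 23 cytotoxic granule and serpin genes 1 other was called, Serpinb6b, a protease inhibitor gene, which rose by 1.33 (SE 0.11, limma adjusted p = 0.00151). The granzyme genes Gzma (4.90 ± 0.39 in Cre- and 4.67 ± 0.32 in Cre+ cells) and Gzmb (3.67 ± 0.37 in Cre- and 3.74 ± 0.30 in Cre+ cells, SD, n = 3) had overlapping groups. Klrd1, CD94, a lectin-like receptor of NK and some T cells, read 7.37, 7.45 and 7.36 in the Cre- arrays and 6.22, 6.15 and 6.60 in the Cre+ arrays. It fell by 1.07 (adjusted p = 0.0097), the 1 called of 25 killer lectin-like receptors. Of these genes, leaving out 1 array ended the call of Klrd1 (0.0523 without Cre- 2, also Cre- 3).

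The other large decreases fell on single genes of many functions. Cpm, a membrane carboxypeptidase, fell by 1.13 (adjusted p = 0.0189) and Chil5, a chitinase-like protein gene, by 1.30 (adjusted p = 0.0175). Smpd5, a sphingomyelinase, read 6.35, 6.27 and 6.45 in the Cre- arrays and 5.51, 5.39 and 5.44 in the Cre+ arrays. Nlrc3, known as a brake on T cell and innate signalling, read 7.74, 7.67 and 7.63 in the Cre- arrays and 6.77, 6.93 and 6.66 in the Cre+ arrays. In both the groups were tight and apart, and they fell by 0.91 and 0.90 (adjusted p = 0.00432 and 0.00674). Prag1, a pseudokinase scaffold, fell by 0.83 (adjusted p = 0.00513). The RNA-binding protein gene Raver2, the vesicle protein genes Syt11 and Sv2a, the phosphatase gene Ppm1j, the peptidylarginine deiminase gene Padi2 and Tex9 fell by 0.83 to 1.01. Tcp10c fell by 0.96 while its near copy Tcp10b rose by 0.91 (adjusted p = 0.00284 and 0.0412), and both read dim, so the split of probes between these copies is uncertain. Btla, an inhibitory receptor, was the 1 called of 24 costimulatory and inhibitory receptors, with a fall of 0.55 (adjusted p = 0.0457). Further decreases picked after their values were seen were the adaptor gene Hcst (-0.67, adjusted p = 0.0392), the ceramide synthase gene Cers6 (-0.69, adjusted p = 0.0189), Treml2 (-0.82, adjusted p = 0.0353), the sodium pump subunit gene Atp1b1 (-0.59, adjusted p = 0.0331) and Evi2b (-0.76, adjusted p = 0.0097). Evi2b lies within an intron of Nf1, a brake on Ras, and Nf1 rose (0.86, adjusted p = 0.0181). Among these decreases, and for Tcp10b and Nf1, leaving out 1 array ended the calls of Cpm (0.0904 without Cre- 2, 4 of 6), Chil5 (0.0851 without Cre- 3, 4 of 6), Raver2 (0.0674 without Cre+ 2, 4 of 6), Syt11 (0.0601 without Cre- 3, also Cre- 2 and Cre+ 2), Ppm1j (0.0917 without Cre+ 1, 4 of 6), Padi2 (0.143 without Cre- 2, 5 of 6), Sv2a (0.115 without Cre- 1, 5 of 6), Tex9 (0.0773 without Cre- 3, 4 of 6), Tcp10b (0.158 without Cre- 2, 5 of 6), Btla (0.164 without Cre+ 3, 6 of 6), Hcst (0.158 without Cre- 1, 6 of 6), Cers6 (0.0943 without Cre- 1, 5 of 6), Treml2 (0.141 without Cre- 2, 5 of 6), Atp1b1 (0.13 without Cre- 2, 6 of 6) and Nf1 (0.0881 without Cre- 2, 5 of 6).

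Of the 71 pathway lists, 33 held no called gene. Together the pathway lists held 69 of the 251 called genes, so most called genes were on none of them. The cell cycle (35 genes, median 0.00), the mitochondrial respiratory chain (73, median 0.01) and the cytosolic ribosomal proteins (57, median -0.05) were close to the 0.00 of all genes. Lists of growth metabolism lay slightly lower without a call: ribosome biogenesis (28 genes, 4 above 0, median -0.12), glycolysis (19, 6 above 0, median -0.12) and cholesterol synthesis (20, 6 above 0, median -0.16). The largest of these was Pdk1, the gene of a pyruvate dehydrogenase kinase (-0.61, adjusted p = 0.131). No subunit of the NuRD and Sin3 complexes that Ikaros recruits was called (19 genes, median -0.03).

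**Figure D4:**
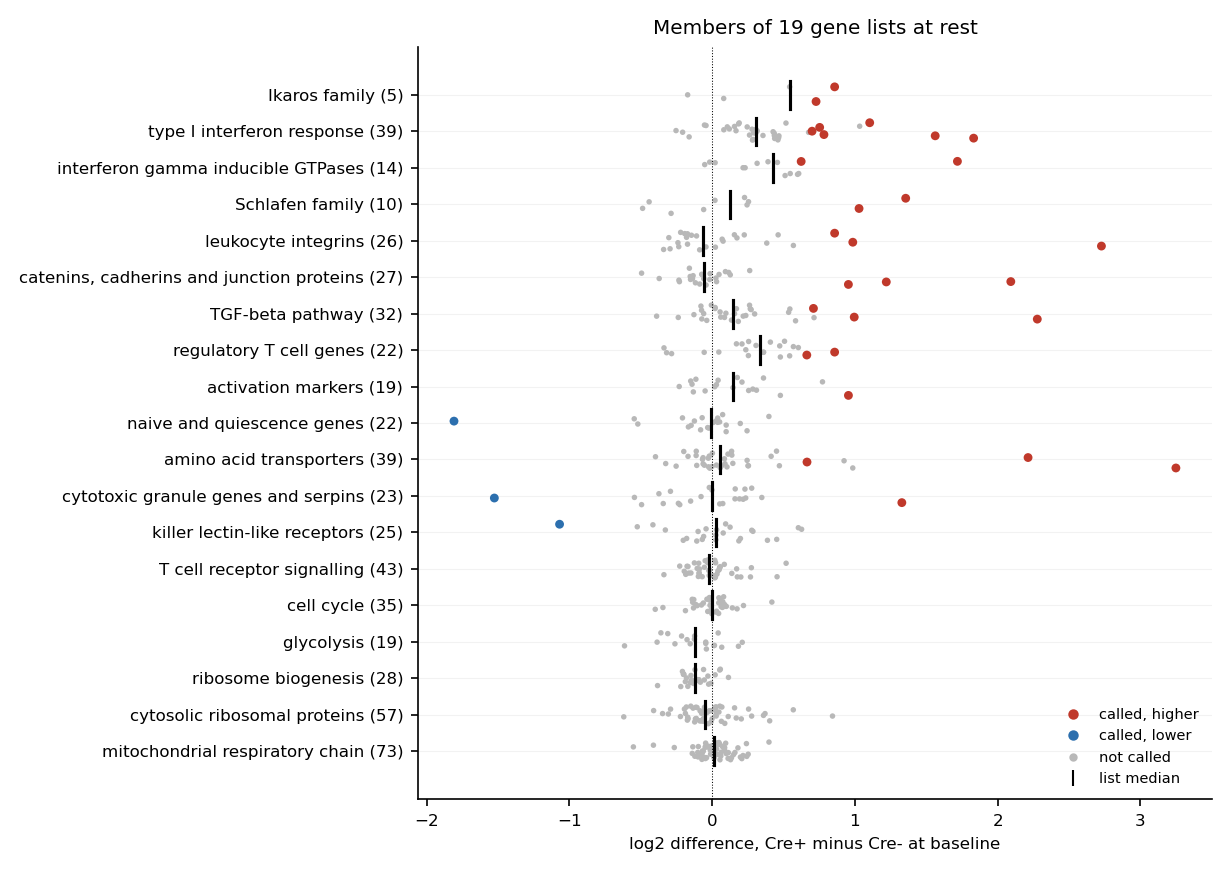
Log2 differences between Cre+ and Cre- cells at baseline (horizontal axis) of the members of 19 gene lists (rows, number measured in brackets), 1 point per gene; red and blue points are called genes and black bars list medians. The regulatory T cell list (median 0.33) and the interferon lists (0.31 and 0.42) lie to the right of 0, while in the integrin, catenin and transporter lists a few red points stand far from a median near 0.

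Markers checked the identity of the cells. Cd4 read 11.32, 11.26 and 11.12 in the Cre- arrays and 11.60, 11.50 and 11.48 in the Cre+ arrays and Cd3e 11.08 ± 0.09 in Cre- and 11.06 ± 0.06 in Cre+ cells (SD, n = 3), and the mean over 7 CD4 T cell markers was 10.18 to 10.26 in Cre- and 10.24 to 10.34 in Cre+ arrays. Transcripts of B cell genes were present as well. The mean over 14 B cell markers was 8.22 to 8.46 in Cre- and 8.09 to 8.19 in Cre+ arrays. Cd79a stood at 9.65 ± 0.14 in Cre- and 9.55 ± 0.04 in Cre+ cells. Of the 14 differences 13 were below 0 and none was called. Groups were separate downward in 6 (42.9%), against 7.42% of all genes. Macrophage and monocyte markers (14) averaged 5.11 to 5.31 and 5.08 to 5.60, with Itgam the only one called. Cre+ array 3 was the highest of the 6 for macrophage (5.60), neutrophil (4.33), dendritic cell (5.92) and plasma cell markers (6.36, against 5.75 to 5.92 in the others), and Irf4 was the 1 called of the 7 plasma cell markers. Without that array, Itgam and Irf4 were still called. The defining Csf1r read 6.23 ± 0.31 in Cre- and 5.99 ± 0.62 in Cre+ cells, Adgre1 4.74 ± 0.12 in Cre- and 4.72 ± 0.43 in Cre+ cells and Cd68 7.83 ± 0.21 in Cre- and 7.77 ± 0.40 in Cre+ cells, all with overlapping groups, beside the 2.73 rise of Itgam.

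CD8 T cell markers (6) averaged 6.17 to 6.35 in Cre- and 5.92 to 6.25 in Cre+ arrays, and NK markers (9) 4.49 to 4.62 and 4.35 to 4.60, beside the lower Prf1 and Klrd1. None of either list was called. Cd8a read 6.07 ± 0.24 in Cre- and 6.44 ± 0.44 in Cre+ cells, Cd8b1 7.39 ± 0.23 in Cre- and 7.43 ± 0.30 in Cre+ cells, Ncr1 4.93 ± 0.42 in Cre- and 4.70 ± 0.13 in Cre+ cells and Klrb1c 5.04 ± 0.18 in Cre- and 4.93 ± 0.23 in Cre+ cells. The endothelial list (13 genes, median 0.02) averaged 4.09 to 4.20 in Cre- and 4.54 to 4.62 in Cre+ arrays. Of its genes only Eng and Tmem204 were called, and Pecam1 (9.78 ± 0.10 in Cre- and 9.79 ± 0.12 in Cre+ cells), Cdh5 (4.86 ± 0.33 in Cre- and 4.95 ± 0.29 in Cre+ cells) and Kdr (5.15 ± 0.21 in Cre- and 5.49 ± 0.64 in Cre+ cells) had overlapping groups. Gamma delta and innate-like T cell markers (8) averaged 4.97 to 5.16 in Cre- and 5.36 to 5.67 in Cre+ arrays, with no overlap, 6 of the 8 above 0 and a median of 0.26. Cd163l1 and Sox13 were called, while Trgc1 stood at 5.92 ± 0.42 in Cre- and 6.27 ± 0.03 in Cre+ cells and Zbtb16 at 5.28 ± 0.27 in Cre- and 5.61 ± 0.27 in Cre+ cells. The part of other cells in the genotype differences was not tested.

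**Figure D5:**
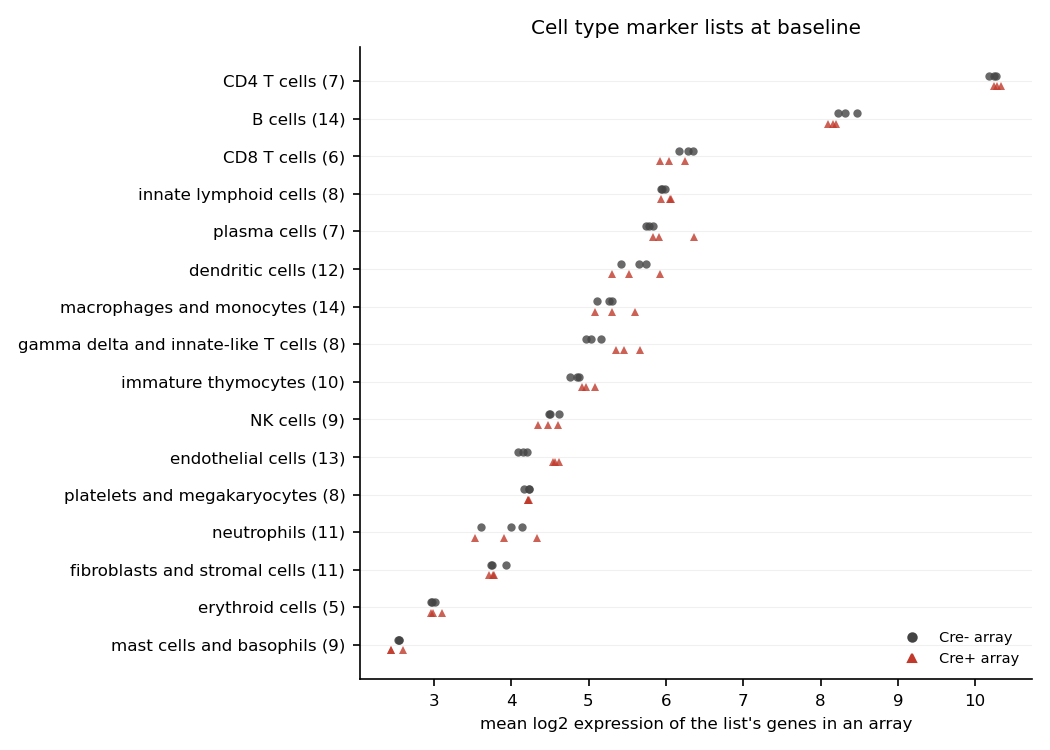
Mean log2 expression over the genes of each cell type marker list (rows, number measured in brackets) in each baseline array (horizontal axis); grey circles are Cre- and red triangles Cre+ arrays. CD4 T cell markers read highest, above 10 in every array, and the B cell list comes next, slightly lower in the 3 Cre+ arrays (8.09 to 8.19) than in the 3 Cre- arrays (8.22 to 8.46).

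The same contrast in the activated arrays, which are other arrays than the resting ones, was set beside these genes. Whether resting and activated cells came from the same mice is not stated. Of the 251, 232 differed in the same direction after 24 h of activation, which is 92.4%, against 55.6% of all genes. When all 12 arrays were fitted together, 64 of the 251 (25.5%) were called after activation, against 0.729% of all genes. The spread in that fit includes the resting arrays, so these calls are not independent of those at rest. The median difference after activation was 0.65 for genes higher at rest and -0.45 for genes lower at rest. All 20 of the largest increases were above 0 after activation, by 0.21 to 4.31. Ifitm3 differed by 4.31 and Ctnnd1 by 3.27 there, and Slc15a1 by 0.32, Cd163l1 by 0.21 and Itgam by 0.70. A test of the difference between the 2 genotype effects over all 12 arrays called 2 genes, 0.00863% of those tested, and neither was among the 251. Of the 251, 85 reached an unadjusted p under 0.05 in that test, and 1089 of all 23185 genes did. The test contains the resting difference by which the 251 were chosen. The count of 85 therefore does not show that their differences changed with activation.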

How the data were processed

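Total RNA of the CD4 T cells was labelled with biotin and hybridised to Mouse Gene 2.0 ST arrays, 1 array per sample, per the labels' protocols. The deposited values are log2 expression, which the authors made with RMA (affy 1.36.1, R 2.15.1, per the submitters' processing notes). The chip definition file and build: not given in the sources used here. RMA scales all arrays to a common distribution, so a shift shared by all genes would not be seen. Of 25206 probe sets, 23185 had 1 gene in the platform annotation, 0 had several and 2021 had none listed. Symbols were updated through the RefSeq gene identifier, which matched all 23185.

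Groups came from the labels. The 6 baseline arrays were fitted alone with limma 3.58.1 (R 4.3.3) with 4 residual degrees of freedom and a prior of 4.21, and calls took a two-sided test and an adjusted p (Benjamini-Hochberg, 23185 genes) under 0.05. SE is the moderated standard error, SD is over the 3 arrays of a group and the number of arrays limits the precision. The difference of genotype effects was fitted to all 12 arrays. The main fit did not treat replicate numbers as pairs. Deviations of same-numbered arrays correlated at -0.03, 0.14 and 0.15, and those of differently numbered arrays at -0.17 to 0.05. Whether the numbers pair the samples was not tested.

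The members and the 71 pathway and 17 marker lists (1401 of 1490 listed symbols measured, besides lists taken by name prefix) were chosen with earlier results of these data known; 1 list is not reported here. The text names Ikzf1, then among called genes with groups that did not overlap the 20 that rose and the 15 that fell most (no predicted genes, pseudogenes or receptor segments), from each list up to 4 called members or its 2 members of lowest p where it had under 2 calls, close relatives, defining markers, and genes the text says were picked after their values were seen. Alternatives were the replicate block, array weights, robust moderation with a variance trend, a mean of at least 5, all probe sets, median centring, quantile normalization, a 2-fold minimum, all 12 arrays, sex as a covariate, and each array left out.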

Additional observations from a re-analysis of the deposited data

Results flagged for a closer look

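In a test of whether the genotype difference at rest equals that after activation, over all 12 arrays, 2 genes passed. Il3, which encodes the cytokine interleukin-3, read 2.73 ± 0.06 in Cre- and 2.76 ± 0.32 in Cre+ cells at rest (SD, n = 3) and 4.44 ± 0.43 in Cre- and 8.03 ± 0.46 in Cre+ cells after activation, and the difference of the effects, rest minus activated, was -3.57 (SE 0.36, limma adjusted p = 0.00556). Ccn4, which encodes a secreted matricellular protein, read 4.00 ± 0.05 in Cre- and 4.46 ± 0.18 in Cre+ cells at rest and 4.49 ± 0.18 in Cre- and 6.86 ± 0.13 in Cre+ cells after activation, a difference of effects of -1.91 (SE 0.18, limma adjusted p = 0.00556). Of the 2021 probe sets with no gene listed, which the comparisons left out, 18 passed between the genotypes at rest when all probe sets were tested, 15 higher and 3 lower in Cre+ cells.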

How the results depend on the processing

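The count of 251 called genes was 111 (96 higher, 15 lower) with the replicate block, 425 with a variance trend and robust moderation, 403 of 9430 genes with a mean of at least 5, 88 with a 2-fold minimum, 128 (114 higher, 14 lower) in the fit of all 12 arrays, and 105 to 132 with 1 array left out. The block kept 107 of the 251. With array weights (261), all probe sets (259), median centring (258), quantile normalization (253) and sex as a covariate (199) it stayed within 1.5 times. A similar count did not mean the same genes, and the sex covariate kept 174 of the 251. No called gene among those named changed direction in any of these. Of the 113 called genes chosen for naming, the block ended 51 calls, the fit of all 12 arrays 55 and the sex covariate 20, and the cause was not tested. The 2 genes called for the difference of the genotype effects became 5 with the replicate block, 143 with array weights, 4 with quantile normalization, 4 with sex as a covariate and 2 to 25 with 1 array left out. The uncalled Klf1 (-0.065) ranged from -0.14 (without Cre+ array 1) to 0.033 (without Cre- array 1). The number of arrays, 3 per group, and the unmeasured background of dim genes limit these counts.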
